A study of Homo sapiens with 12 samples.

Results

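NONO peaks in 3′ UTRs are the eCLIP peaks that the authors' annotation assigned to a 3′ untranslated region, the stretch of an mRNA between its stop codon and its end. They were taken from the annotation column of 6 deposited peak lists, and no measured value was used to choose them. There were 298 of them among 26351 peaks (1.13%), in 85 of the 1689 genes with any peak (5.03%). The cells were 22Rv1, an established line from a human prostate carcinoma. RNA bound to NONO was crosslinked to it by UV light, pulled down with a rabbit antibody and sequenced beside its own input library, the method called eCLIP. Cells had grown for 40 h and were then treated for 4 h with 20 µM SKBG-1(R), with 20 µM SKBG-1(S), or with the 0.04% DMSO in which both compounds were dissolved. SKBG-1(R) and SKBG-1(S) are stereoisomers of the same small molecule, which the study names as targeting NONO. Each of the 3 groups had 2 lists, each called on 1 immunoprecipitation against its own input, and both compounds share the same DMSO lists. The labels give no genotype for these cells and leave unsaid whether replicates were grown apart, so a p-value here measures the spread between these lists alone, which may be technical.

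NONO belongs to the DBHS family of RNA-binding proteins, works as a dimer, often with SFPQ, and is a core protein of paraspeckles, nuclear bodies that form around NEAT1, a long noncoding RNA. Most of its RNA contacts are made on unspliced nuclear transcripts. In 3′ UTRs it is known for holding some mRNAs with paired inverted Alu repeats in the nucleus, and for a part in cleavage and polyadenylation at transcript ends. A 3′ UTR also carries the binding sites of microRNAs and of proteins that set mRNA stability and localization.

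The sequences below show what NONO's 3′ UTR peaks look like on the transcript strand. Each is the first 30 bases of a peak, 5′ to 3′, in GRCh38 coordinates, and was read from the GENCODE 29 transcripts. Capitals mark runs of at least 3 G. The first 5 come from the 5 merged regions in which peaks of at least 3 lists overlapped, which are the most repeated 3′ UTR sites of the study.
ARFRP1, chr20:63699319-63699348, minus strand: ggtcctGGGaggagctgctGGGaaGGGGca
RBM14, chr11:66627048-66627077, plus strand: tttagatGGGaaggaggccaggaaaGGGtc
RBM14, chr11:66626776-66626805, plus strand: tttcatgccctctaccatgtGGGccttccc
TIMM13, chr19:2426433-2426462, minus strand: agtccatctttccccttagtgccaccGGGc
D2HGDH, chr2:241768248-241768277, plus strand: ggaagcGGGGtGGGtctcacttgcgtggtg
The next 5 come from the 3′ UTR peaks with the 5 highest enrichments over input, all in SKBG-1(R) replicate 2.
TMEM179, chr14:104593222-104593251, minus strand: ctatGGGtgtGGGGcGGGGGcGGGGGGcac
METRN, chr16:717848-717877, plus strand: ggtccctcGGGtacggtGGGGGcaggcGGG
TMEM179, chr14:104594454-104594483, minus strand: gatgaggcagatgaGGGGtgccGGGtGGGG
DNAJC5, chr20:63934875-63934904, plus strand: aGGGcaccagcatgcaggctgccactggag
CCND1, chr11:69653521-69653550, plus strand: tggacccagcGGGcaggttctgcctgcttt
Each of these 10 windows held at least 1 run of 3 G, and the first TMEM179 window held 4 runs with 19 G among its 30 bases.

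Every peak met the limits of the deposited lists, a log2 enrichment over input and a −log10 p of at least 3 each, so a gene without a peak was not shown to be unbound. No read counts were given, and the depth of each library is unknown. The lists differed in length from 669 peaks in DMSO replicate 1 to 14847 in SKBG-1(R) replicate 2, and the intervals below cover counting error only. Of the 6 prostate luminal markers looked up, 1 held a peak in any class of region. Among 10 markers of other cell types SRRM4 alone did, although a peak list does not measure expression.

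SKBG-1(R) replicate 1 had 13 3′ UTR peaks among 1953 peaks, and SKBG-1(R) replicate 2 had 234 among 14847. SKBG-1(S) replicate 1 had 4 among 1237, and SKBG-1(S) replicate 2 had 26 among 3967. DMSO replicate 1 had 2 among 669, and DMSO replicate 2 had 19 among 3678. One list, SKBG-1(R) replicate 2, therefore supplied 78.5% of all 3′ UTR peaks, and the 3 first replicates together rest on few peaks.

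As a share of the list, 3′ UTR peaks made up 0.666% (95% Wilson interval 0.389 to 1.14%) and 1.58% (1.39 to 1.79%) in the SKBG-1(R) lists. In the SKBG-1(S) lists the share was 0.323% (0.126 to 0.828%) and 0.655% (0.448 to 0.959%). In the DMSO lists it was 0.299% (0.0820 to 1.08%) and 0.517% (0.331 to 0.805%). Both SKBG-1(R) shares lay above both shares of each other group, but SKBG-1(R) replicate 1 exceeded SKBG-1(S) replicate 2 by very little and its interval overlapped those of all 4 SKBG-1(S) and DMSO lists. Within each group the second replicate had the higher share and the longer list.

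**Figure D1:**
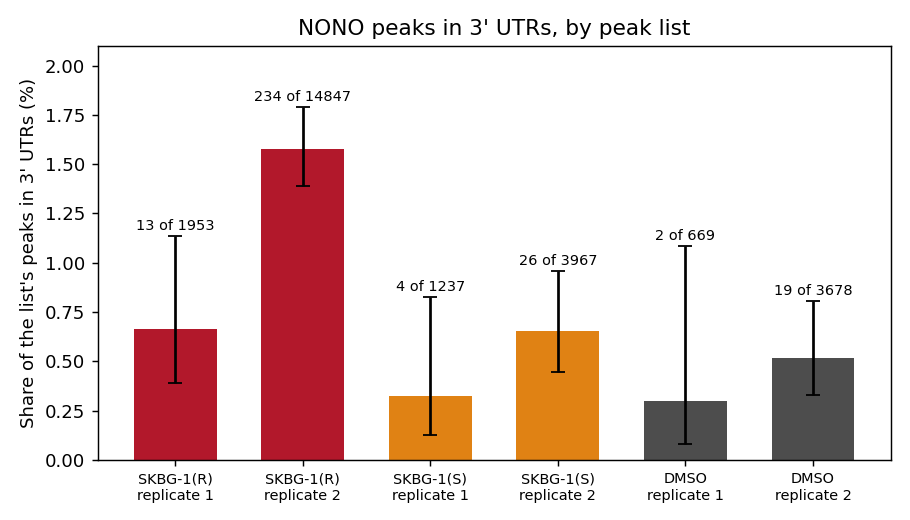
Share of each list's peaks that lie in 3′ UTRs (%, bars from 0), with 95% Wilson intervals, for the 2 SKBG-1(R), 2 SKBG-1(S) and 2 DMSO lists. Numbers above the bars are 3′ UTR peaks of all peaks in the list. SKBG-1(R) replicate 2, with 234 peaks, stands at 1.58%, and the other 5 lists lie between 0.299 and 0.666%.

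The first comparison asks whether SKBG-1(R) altered how much of NONO's binding lay in 3′ UTRs. The share averaged 1.12 ± 0.644% with SKBG-1(R) and 0.408 ± 0.154% with DMSO (SD, n = 2 each), a difference of 0.713 percentage points. The exact two-sided permutation test gave p = 0.333, which is the smallest p that 2 lists against 2 allow. Between same-numbered lists the share was 2.23 times and 3.05 times as high with SKBG-1(R) as with DMSO. These were the highest such ratios of any class of region with a value in both pairs: 5′ UTR peaks had ratios of 0.971 and 0.859, coding exon peaks 0.868 and 1.66. Shares of one list add up to the whole, so classes are not independent.

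The separation of SKBG-1(R) from DMSO depended on how peaks were selected. With every list cut to its 669 strongest peaks, the SKBG-1(R) lists held 1 and 10 3′ UTR peaks, the SKBG-1(S) lists 0 and 0, and the DMSO lists 2 and 1, so that the groups overlapped. At a log2 enrichment of at least 4, the share was 0.149 and 1.37% with SKBG-1(R), 0 and 0.769% with SKBG-1(S), and 0 and 0.265% with DMSO, again overlapping. List length moved with the result, and its part in it was not tested.

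SKBG-1(S) came out close to DMSO. The share averaged 0.489 ± 0.235% with SKBG-1(S) and 0.408 ± 0.154% with DMSO (SD, n = 2 each), a difference of 0.0816 percentage points with p = 0.667 in the exact permutation test, and the lists overlapped. Between same-numbered lists the ratios were 1.08 and 1.27. Counted over only the peaks whose overlapping transcripts were all annotated as 3′ UTR, the difference turned to −0.0261 percentage points.

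The stereoisomers were compared at the same dose and time. SKBG-1(R) exceeded SKBG-1(S) by 0.631 percentage points (exact permutation p = 0.333, the smallest possible), and the share was 2.06 times and 2.405 times as high between same-numbered lists. On the log2 scale, the number of 3′ UTR peaks differed by 2.44 between SKBG-1(R) and SKBG-1(S), by 3.16 between SKBG-1(R) and DMSO, and by 0.73 between SKBG-1(S) and DMSO, each with an exact permutation p of 0.667. Of these 6 comparisons of shares and numbers, none could reach 0.05 in a design of 2 lists against 2.

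Not every one of these peaks was certain to mark a mature 3′ UTR. The class is given once per peak, while most peaks overlap several transcripts of a gene. All overlapping transcripts were annotated as 3′ UTR for 144 peaks (48.3%). For 100 peaks (33.6%) in 37 genes another transcript of the same gene had an intron there, and the remaining 54 had some other annotation on at least 1 transcript. Intron overlap applied to 2 and 82 peaks in the SKBG-1(R) lists, to 2 and 9 in the SKBG-1(S) lists, and to 0 and 5 in the DMSO lists. All peaks of SSU72, CHFR, SLC19A1, TMEM179, FBXL18 and FBRSL1 were of this kind, whereas none of those in TIMM13, RBM14, DNAJC5, NACC2, D2HGDH, CBX6 or NPLOC4 were.

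Along the 3′ UTR, peaks were spread rather than gathered at one end. The median position was 0.503 of the way from the stop codon to the transcript end, with quartiles at 0.315 and 0.717. The median peak started 900.5 bases after the stop codon and ended 814 bases before the transcript end, on a 3′ UTR of median length 2040 bases (range 241 to 13050). Within 100 bases of the transcript end lay 20 of the 298 peaks, and within 100 bases of the stop codon 15. Taken once per gene, the 85 bound 3′ UTRs had a median length of 1855 bases, against 1124 bases for the longest 3′ UTR of each of 18684 protein-coding genes. A longer 3′ UTR leaves more room for a peak, so these medians cannot show a preference for length. Peak width had a median of 67.5 bases (range 6 to 203), and log2 enrichment over input a median of 3.66 (range 3.00 to 5.76).

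Overlapping peaks merged into 261 regions, of which 241 had peaks of 1 list only, 15 of 2 lists, 3 of 3 lists, 1 of 4 lists and 1 of 5 lists, and 0 of all 6. Only 60 of the 298 peaks (20.1%) overlapped a peak of any class in another list by at least 1 base. Among SKBG-1(R) lists, 53.8% of 3′ UTR peaks and 74.8% of other peaks did so in replicate 1, with 11.1% and 33.4% for replicate 2. Among SKBG-1(S) lists the values were 50.0% of 3′ UTR peaks and 90.8% of other peaks in replicate 1, with 50.0% and 74.5% for replicate 2. Among DMSO lists they were 50.0% of 3′ UTR peaks and 88.2% of other peaks in replicate 1, with 57.9% and 73.9% for replicate 2. The share was lower for 3′ UTR peaks in 6 of 6 lists, with a mean difference of −27.1 ± 10.0 percentage points (SD, n = 6 lists). The 50.0% of DMSO replicate 1 stands for 1 of 2 peaks and that of SKBG-1(S) replicate 1 for 2 of 4. These lists had the largest differences, and each counts as much as the list with 234 3′ UTR peaks. An exact sign-flip permutation test over lists gave p = 0.03125, the smallest it can give, and 0.0438 after Benjamini-Hochberg adjustment over the 7 measures compared in this way. The 7 include comparisons of GC content and of chromosome position, given below, that were chosen after seeing the data. Those also gave the smallest p, so the adjusted p for overlap depends on their inclusion. Overlap is mutual between lists, so the 6 values are not fully independent, and at a log2 enrichment of at least 4 the mean difference was −6.39 over the 4 lists that still held 3′ UTR peaks.

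Few 3′ UTR peaks recurred in the other replicate of the same treatment. In SKBG-1(R), 7 of 13 peaks of replicate 1 and 7 of 234 peaks of replicate 2 overlapped a peak of the other replicate. In SKBG-1(S) the numbers were 0 of 4 and 0 of 26, and in DMSO 0 of 2 and 0 of 19. Other peaks of the same lists overlapped their replicate at 54.4 and 9.09% in SKBG-1(R), 54.5 and 18.8% in SKBG-1(S), and 33.3 and 6.89% in DMSO.

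The strength of single 3′ UTR peaks differed from that of other peaks in significance but not measurably in enrichment. Median −log10 p against input was 3.56 for 3′ UTR peaks and 5.06 for other peaks in SKBG-1(R) replicate 1, then 6.51 and 7.09 for replicate 2. In the SKBG-1(S) lists it was 4.28 and 5.003 for replicate 1, then 4.87 and 6.09 for replicate 2. In the DMSO lists it was 3.90 and 4.67 for replicate 1, then 4.58 and 5.60 for replicate 2. The mean difference was −0.968 ± 0.348 (SD, n = 6 lists), lower in 6 of 6 lists, with an exact permutation p of 0.03125 and an adjusted p of 0.0438. That adjusted p depends in the same way on measures chosen after seeing the data. Median log2 enrichment differed by −0.02 (exact permutation p = 0.781) and median width by 4.75 bases (exact permutation p = 0.469), each lower in 3 lists and higher in 3. Of the 47 peaks at the −log10 p cap of 400, 0 lay in a 3′ UTR, beside 1.13% of all peaks. So few capped peaks cannot show a difference.

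**Figure D2:**
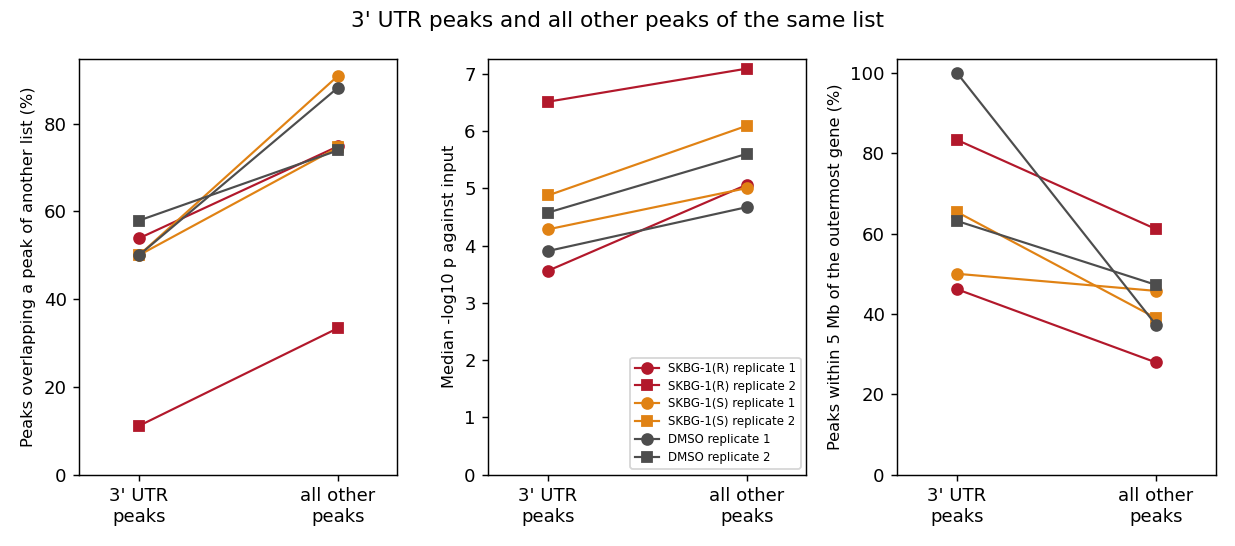
3′ UTR peaks (left point) and all other peaks (right point) of the same list, joined by a line per list: share overlapping a peak of another list (%), median −log10 p against input, and share within 5 Mb of the outermost annotated gene of the chromosome (%). Colours mark treatment, circles replicate 1 and squares replicate 2. In all 6 lists 3′ UTR peaks are lower in the first 2 panels and higher in the last.

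Base composition set 3′ UTR peaks apart both from the rest of their own 3′ UTRs and from NONO peaks in other exons. Median GC content of the peaks was 70.8 and 68.5% in the SKBG-1(R) lists, 68.9 and 63.3% in the SKBG-1(S) lists, and 65.9 and 65.8% in the DMSO lists. The parts of the same 3′ UTRs outside peaks had medians of 56.6 and 57.6%, 59.3 and 53.3%, and 60.2 and 54.2% in the same lists. Peaks were higher by 10.3 ± 2.81 percentage points (SD, n = 6 lists), in 6 of 6 lists (exact permutation p = 0.03125, adjusted 0.0438). Peaks in other exons were richer still, at 79.5 and 74.2% in SKBG-1(R), 80.0 and 75.2% in SKBG-1(S), and 79.5 and 74.2% in DMSO. Most of those were 5′ UTR peaks: over the 6 lists there were 1342 in 5′ UTRs, 428 in coding exons and 449 in noncoding exons. These classes were not compared singly. Against those, 3′ UTR peaks were lower by a mean difference of −9.87 ± 2.83 percentage points in 6 of 6 lists (exact permutation p = 0.03125, adjusted 0.0438). The 3′ UTRs of all protein-coding genes had a median GC content of 42.9%, and the parts of the bound 3′ UTRs outside peaks, taken once per gene, 58.8%. The GC content of reads and of input libraries was not measured here, and the part of base composition in peak calling was not tested.

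**Figure D3:**
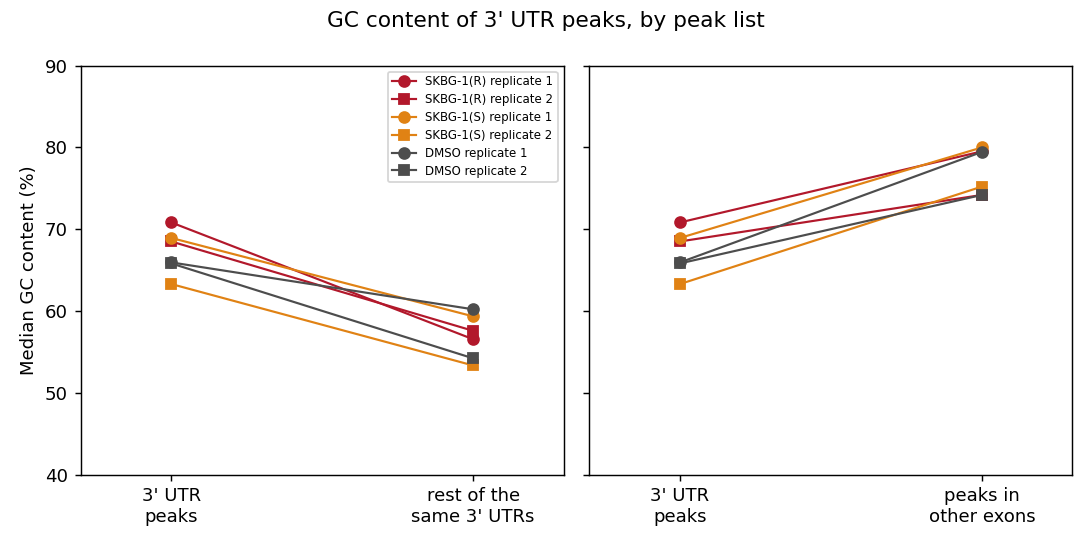
Median GC content (%, axis from 40) of 3′ UTR peaks, set beside the rest of the same 3′ UTRs in the left panel and beside peaks in other exons in the right panel, with 1 line per list. 3′ UTR peaks, at 63.3 to 70.8%, lie above the rest of their 3′ UTRs and below other exonic peaks in all 6 lists.

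The capitals in the sequences above recur across the 3′ UTR peaks. Windows of 60 bases, centred on the most enriched peak of each of the 261 regions, were searched on the transcript strand alone. GGGG and GTGGG both contain GGG, so their counts overlap. GGG was found in 92.7% of the peak windows, in 66.7% of 3281 windows from the rest of the same 3′ UTRs, and in 43.9% of 551871 windows from the 3′ UTRs of all protein-coding genes. GGGG was found in 60.5% of peak windows, against 31.1% and 15.1% in those 2 sets, and GTGGG in 33.7%, against 13.5% and 6.68%. The repeat GTGTG was found in 18.4% of peak windows, against 8.72% and 6.65%. At the other end, TTTTT was found in 1.15% of peak windows, against 10.3% and 17.6%, and the polyadenylation signal AATAAA in 0%, against 1.95% and 4.92%. In the 39 regions whose most enriched peak came from another list than SKBG-1(R) replicate 2, GGG was found in 89.7%, GGGG in 61.5%, GTGGG in 38.5%, GTGTG in 20.5% and TTTTT in 5.13%. These are descriptions of letters, a match is not a binding site, and GC content moved with them: its part in these shares was not tested.

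Position on the chromosome was the remaining measure. Many 3′ UTR peaks lay towards chromosome ends, with 234 of 298 peaks (78.5%) within 5 Mb of the outermost annotated gene, a range that holds 13.2% of 19893 protein-coding genes. Of the peaks in that range, 195 came from SKBG-1(R) replicate 2. A gene with many peaks counts many times in the 78.5%, while the 13.2% counts each gene once. The share was 46.2% of 3′ UTR peaks and 27.9% of other peaks in SKBG-1(R) replicate 1, then 83.3% and 61.1% for replicate 2. In the SKBG-1(S) lists it was 50.0% of 3′ UTR peaks and 45.7% of other peaks, then 65.4% and 39.0%. In the DMSO lists it was 100% of 3′ UTR peaks and 37.3% of other peaks, then 63.2% and 47.3%. The mean difference was 24.9 ± 19.9 percentage points, higher in 6 of 6 lists (exact permutation p = 0.03125, adjusted 0.0438). That 100% stands for the 2 peaks of DMSO replicate 1, both in ARFRP1. Calls for this measure, for overlap, for −log10 p and for both GC comparisons need all 6 lists, since 5 lists cannot give a p below 0.0625. With the 100 peaks that lay in an intron of another transcript left out, all 5 kept their direction, but the mean overlap difference shrank to −16.3 percentage points (adjusted p 0.0875, exact permutation) and the adjusted p of the other 4 was 0.0547.

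Most bound genes appeared in a single list. Of the 85 genes, 42 had 1 3′ UTR peak, 16 had 3′ UTR peaks in 2 or more lists, and 1, ARFRP1, had them in all 6 lists. The lists held 7 and 76 such genes with SKBG-1(R), 3 and 15 with SKBG-1(S), and 1 and 10 with DMSO. SKBG-1(R) replicate 2 alone accounted for 62 genes with 169 peaks, of which 35 had 1 3′ UTR peak. Among those 62 genes, 29 had a peak of some class in another list and 11 had one in SKBG-1(R) replicate 1. For 23 of the 85 genes every peak lay in the 3′ UTR, and 16 of those had a single peak.

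**Figure D4:**
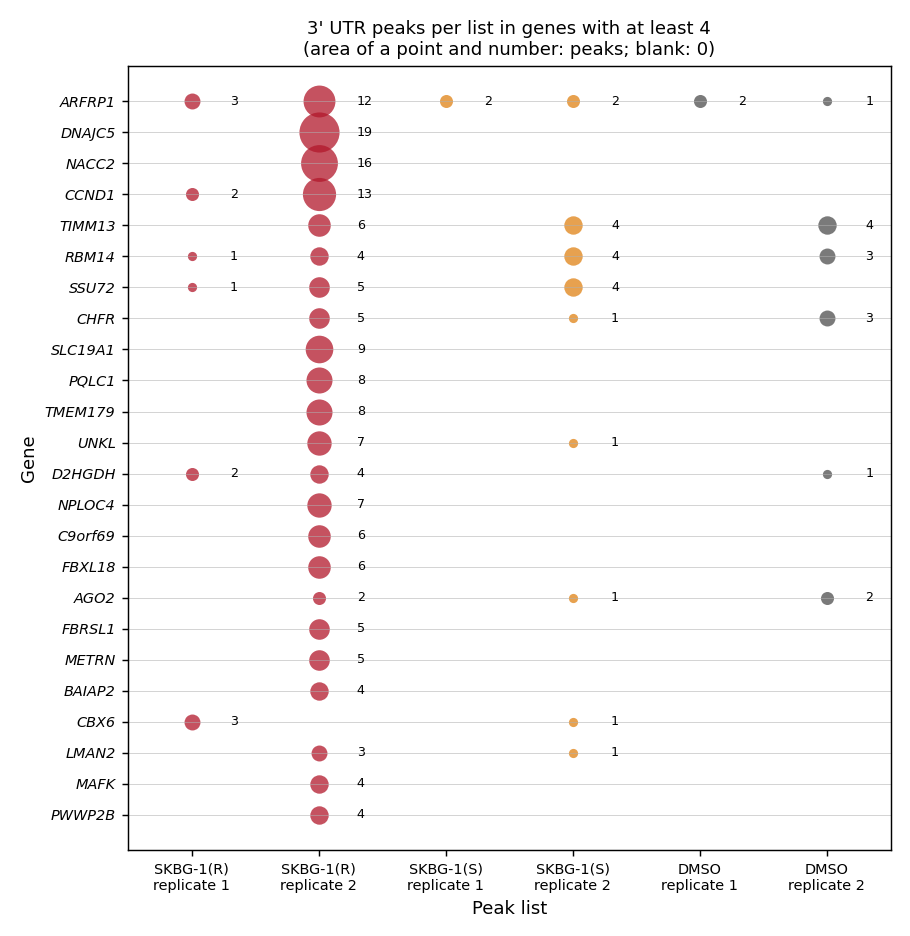
3′ UTR peaks per list for the 24 genes with at least 4 of them, with genes down the page and lists across. The area of a point and the number beside it give the peaks, and a blank means 0. ARFRP1 has peaks in every list, TIMM13 and CHFR have them in second replicates alone, and DNAJC5, NACC2 and SLC19A1 have them in SKBG-1(R) replicate 2 alone.

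ARFRP1 (chr20:63698642-63708025, minus strand) encodes an ARF-related GTPase of the Golgi. It had 3 and 12 3′ UTR peaks with SKBG-1(R), 2 and 2 with SKBG-1(S), and 2 and 1 with DMSO, and 22 of its 26 peaks of any class lay in the 3′ UTR. In all 6 lists it was present, with most peaks in the longest list. One region, chr20:63699119-63699452, joined 10 peaks from every list but DMSO replicate 2, with log2 enrichments of 3.29 to 4.18. It began 1231 bases after the stop codon of a 3′ UTR of 2040 bases.

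TIMM13 (chr19:2425624-2427894, minus strand) encodes a small chaperone of the mitochondrial intermembrane space. It had 0 and 6 peaks with SKBG-1(R), 0 and 4 with SKBG-1(S), and 0 and 4 with DMSO, so that 14 of its 15 peaks lay in the 3′ UTR and all came from second replicates. One region, chr19:2426403-2426475, held a peak of each second replicate. CHFR (chr12:132822187-132956304, minus strand), a ubiquitin ligase of an early mitotic checkpoint, had the same distribution over replicates, with 0 and 5 peaks in SKBG-1(R), 0 and 1 in SKBG-1(S), and 0 and 3 in DMSO. All 9 of its peaks of any class were 3′ UTR peaks, and all 9 lay in an intron of another CHFR transcript.

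RBM14 (chr11:66616582-66627347, plus strand) encodes a paraspeckle protein and transcriptional coactivator that partners with NONO. Its 3′ UTR of 860 bases had 1 and 4 peaks with SKBG-1(R), 0 and 4 with SKBG-1(S), and 0 and 3 with DMSO. The region chr11:66626980-66627140 held peaks of 4 lists and chr11:66626776-66626833 peaks of the 3 second replicates. All groups had peaks there. SSU72 (chr1:1541673-1574869, minus strand), a phosphatase of the RNA polymerase II tail that takes part in 3′ end formation, had 1 and 5 peaks with SKBG-1(R), 0 and 4 with SKBG-1(S), and 0 and 0 with DMSO. Its peaks of all classes numbered 3 and 33 with SKBG-1(R), 2 and 14 with SKBG-1(S), and 0 and 8 with DMSO.

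Further genes with at least 4 3′ UTR peaks, found in at least 2 lists, included the following. Genes with fewer such peaks, some of them also in 2 lists, are not all given. D2HGDH, the mitochondrial D-2-hydroxyglutarate dehydrogenase, had 2 and 4 with SKBG-1(R), 0 and 0 with SKBG-1(S), and 0 and 1 with DMSO. AGO2, the slicing Argonaute protein of microRNA silencing, had 0 and 2 with SKBG-1(R), 0 and 1 with SKBG-1(S), and 0 and 2 with DMSO. CBX6, a Polycomb protein, had 3 and 0 with SKBG-1(R), 0 and 1 with SKBG-1(S), and none with DMSO, and these 4 were its only peaks of any class. UNKL, a zinc finger and RING protein, had 0 and 7 with SKBG-1(R), then 0 and 1 with SKBG-1(S), and LMAN2, a lectin of the secretory pathway, 0 and 3 with SKBG-1(R), then 0 and 1 with SKBG-1(S). Neither had one in the DMSO lists.

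CCND1 (chr11:69641087-69654474, plus strand) encodes cyclin D1, which drives the step from G1 into S phase of the cell cycle. It had 2 and 13 3′ UTR peaks with SKBG-1(R), against 0 and 0 with SKBG-1(S) and 0 and 0 with DMSO. Its peaks of all classes numbered 56 and 169 with SKBG-1(R), 21 and 4 with SKBG-1(S), and 15 and 11 with DMSO. These counts are not scaled to list length, and as shares of the list the groups overlapped. DMSO replicate 1, with 15 of 669 peaks, and SKBG-1(S) replicate 1, with 21 of 1237, lay above SKBG-1(R) replicate 2, with 169 of 14847. The SKBG-1(R) lists did not mark the same places: on the 3′ UTR of 3192 bases, replicate 1 had peaks at bases 762 to 791 and 1159 to 1213 after the stop codon, and replicate 2 had 10 peaks between bases 2239 and 3077. The other 3 peaks of replicate 2 lay in an intron of another transcript. Several peaks of replicate 2 abutted each other, such as bases 2239 to 2281 and 2282 to 2301. CCND1 also held the highest −log10 p of any 3′ UTR peak, 69.4.

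**Figure D5:**
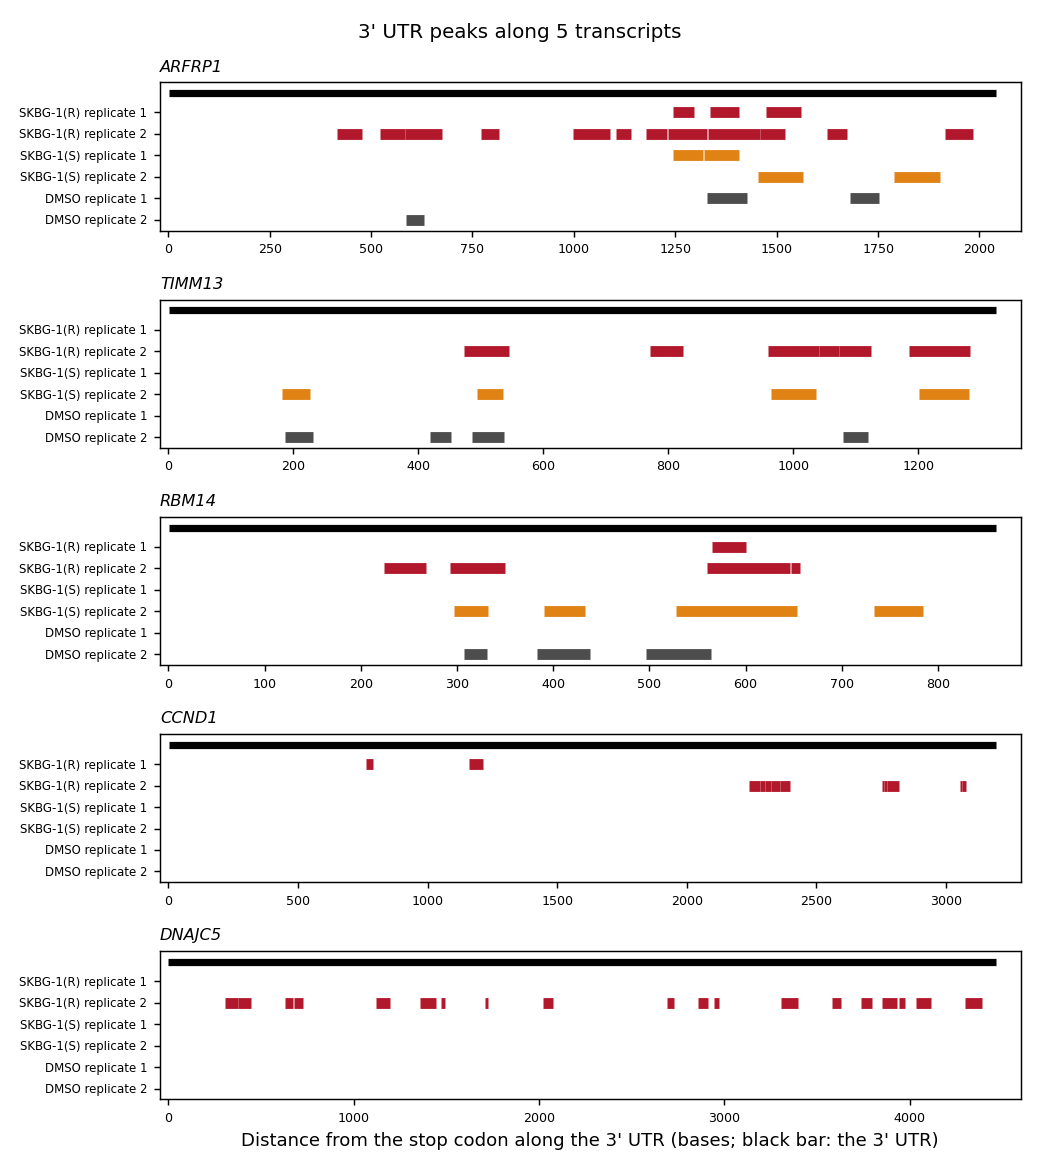
Positions of 3′ UTR peaks on 5 transcripts, in bases after the stop codon, with 1 row per list (SKBG-1(R) on top, then SKBG-1(S), then DMSO) and the 3′ UTR as a black bar. ARFRP1, TIMM13 and RBM14 have peaks of all 3 groups, while CCND1 has SKBG-1(R) peaks alone, at separate places in its 2 lists, and DNAJC5 has peaks of SKBG-1(R) replicate 2 alone.

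Several of the most heavily marked 3′ UTRs were seen in SKBG-1(R) replicate 2 and in no other list. DNAJC5 (chr20:63895182-63936031, plus strand), the cysteine string protein chaperone of synaptic and secretory vesicles, had 19 3′ UTR peaks between 308 and 4387 bases after the stop codon of a 4463-base 3′ UTR. NACC2, a BTB-domain transcriptional repressor, had 16, among 239 peaks of the gene in all, of which 229 came from this list. SLC19A1, the reduced folate carrier, had 9, PQLC1 and TMEM179 had 8 each, and NPLOC4, a cofactor of the p97 segregase, had 7. FBXL18, an F-box protein, and C9orf69 had 6 each, and FBRSL1 and METRN, the secreted neurotrophic factor meteorin, had 5 each. MAFK, a small Maf transcription factor, BAIAP2, an actin regulator also called IRSp53, and PWWP2B had 4 each, and RRP1, a nucleolar ribosome biogenesis factor, had 3. The enrichments were highest in TMEM179, whose strongest peak reached a log2 value of 5.76, and METRN, with 5.46. DNAJC5 reached 5.33, CCND1 5.24, and SLC19A1 and TIMM13 5.19 each. RRP1 reached 5.10 and ARFRP1 5.09.

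The limma test asked whether any gene's 3′ UTR gained or lost peaks. Features were each gene and class of region with at least 10 peaks over the lists, counted per 10000 peaks of the list, and 531 were tested, 7 of them 3′ UTRs. For SKBG-1(R) against DMSO, 1 of 531 features (0.188%) passed an adjusted p of 0.05 and 14 (2.64%) an unadjusted one, and 0 of the 7 3′ UTRs passed either. The feature that passed was the distal introns of AFF3. In 2 of the 7 3′ UTRs both SKBG-1(R) lists were above both DMSO lists, against 11.3% of all features, and in 0 of 7 both were below, against 9.6%. The median log2 difference of the 7 was 0.88, the value of NACC2 itself, and that of all 531 features 0.20. DNAJC5 and NACC2 reached 10 3′ UTR peaks through SKBG-1(R) replicate 2 alone, and CCND1 through the SKBG-1(R) lists alone. The filter thus fixed the direction of their differences. SSU72 reached 10 through lists of the compounds alone, so it could not lie below DMSO either. The 2 3′ UTRs with both SKBG-1(R) lists above DMSO were CCND1 and SSU72. Neither these counts nor the median of the 7 can therefore show a gain with SKBG-1(R).

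CCND1 had 10.2 and 8.76 3′ UTR peaks per 10000 with SKBG-1(R), against 0 and 0 with DMSO. The fitted log2 difference was 1.62 (95% interval −0.12 to 3.37) with an unadjusted limma p of 0.0665 and an adjusted p of 0.988. SSU72 had 5.12 and 3.37 per 10000 with SKBG-1(R), against 0 and 0 with DMSO, and a fitted difference of 0.94. For both genes the filter left no room for a difference below 0. Fitted differences against lists at 0 depend on the prior count of 2 and are not bounds. ARFRP1, with 15.4 and 8.08 per 10000 in SKBG-1(R) and 29.9 and 2.72 in DMSO, differed by 0.00 (95% interval −2.31 to 2.32). DNAJC5 had 0.96, NACC2 0.88, RBM14 0.14 and TIMM13 −0.42, each with groups that overlapped.

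For SKBG-1(S) against DMSO, 0 of 531 features (0%) passed an adjusted limma p of 0.05, and 2 (0.377%) an unadjusted one. Of the 7 3′ UTRs, 0 passed either, 0 had both SKBG-1(S) lists above both DMSO lists, against 11.7% of all features, and 0 had both below, against 5.27%. Fitted log2 differences were 0.84 for SSU72, 0.10 for RBM14, −0.04 for TIMM13 and −0.17 for ARFRP1, and CCND1, DNAJC5 and NACC2 had no 3′ UTR peak in any of these 4 lists. SSU72 had no 3′ UTR peak in the DMSO lists, so its difference could not lie below 0.

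Between the stereoisomers, SKBG-1(R) against SKBG-1(S), 0 of 531 features (0%) passed an adjusted limma p of 0.05 and 5 (0.942%) an unadjusted one. Of the 7 3′ UTRs, 0 passed either, 1, CCND1, had both SKBG-1(R) lists above both SKBG-1(S) lists, against 5.08% of all features, and 0 had both below, against 15.8%. CCND1 differed by 1.62 on the log2 scale (95% interval −0.12 to 3.37, adjusted limma p 0.991). The direction of that difference was fixed by the filter, which CCND1 passed through the SKBG-1(R) lists alone. The 95% intervals of the other 6 covered 0 and reached from −2.43 to 2.61, so differences of several fold were within the error. The level of each transcript was not measured in these lists, and more NONO per transcript and more transcript cannot be told apart.

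Several lists of genes were looked up for 3′ UTR peaks, and 6 of them are reported here. Of 34 genes for paraspeckle proteins and NONO partners, 8 had a peak of any class and 1, RBM14, a 3′ UTR peak. Of 22 genes for 3′ end processing factors, 0 had a peak of any class. Of 14 genes known for inverted-repeat Alu elements or edited bases in their 3′ UTRs, 2 had a peak and 0 a 3′ UTR peak. None of 22 genes of electrophile, heat and amino acid stress had a 3′ UTR peak, and 7 had a peak elsewhere. Among 19 splicing factor genes 5 had a peak and 0 a 3′ UTR peak. By comparison, 5.03% of all genes with a peak had one in a 3′ UTR. For peaks of any class the background is 1689 genes with a peak, noncoding genes among them, beside 19893 annotated protein-coding genes. Most genes thus had no peak, and whether the counts of these short lists differ from that background was not tested.

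Chromatin and transcription regulators with many NONO peaks showed how small the 3′ UTR portion was. All 11 genes of that list had a peak, and 3 had a 3′ UTR peak. ANKRD11, a chromatin regulator, had 459 peaks in all and 3 in the 3′ UTR, 0 and 1 with SKBG-1(R), 0 and 2 with SKBG-1(S), and none with DMSO. NFIX, a transcription factor of the nuclear factor I family, had 274 peaks and 2 in the 3′ UTR, with 1 in the first SKBG-1(R) list and 1 in the first SKBG-1(S) list. The 3′ UTR peaks of ANKRD11 and NFIX all lay in an intron of another transcript of their gene as well.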

How the data were processed

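eCLIP of NONO in 22Rv1 cells gave 12 libraries, 6 immunoprecipitations and 6 inputs, with a UV dose of 400 mJ in the labels' protocols. The authors deposited 1 peak list per replicate, not pooled. Each peak has the authors' deposited −log10 p against input (3 to a cap of 400) and log2 enrichment over input (at least 3), used here to describe, rank or filter peaks within a list, and as list medians set against other peaks of the same list. The submitters' processing notes name cutadapt 1.9, STAR 2.4.0i, hg19 and hg38, without roles, and the peak caller is not given in the sources used here. Of 9850 annotated transcripts, 9797 (99.5%) had the coordinates of GENCODE 29 on GRCh38, which gave 3′ UTRs and sequences.

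Groups and replicate numbers came from the sample titles. Members were all peaks of the 3′ UTR class, and members, gene lists and tests were chosen with earlier results of these data known. Group shares and log2 numbers of peaks were compared by exact two-sided permutation tests, whose smallest p was 0.333. Measures of 3′ UTR peaks against other peaks of the same list were compared by exact two-sided sign-flip permutation tests over the 6 lists, with Benjamini-Hochberg adjustment over 7 measures. The 7 include measures chosen after seeing the data. Genes by class with at least 10 peaks were fitted by limma 3.58.1 in R 4.3.3 on log2 peaks per 10000, with a prior count of 2, a trended variance and all 6 lists in 1 fit. The limma step was tested on simulated lists. A planned comparison of GC content with all other peaks was not run, since no genome sequence was used, and exonic peaks and the rest of the same 3′ UTRs took its place.

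Named genes have 3′ UTR peaks in both lists of a group, at least 4 such peaks, 1 of the 10 most enriched, a limma test, or a place in a gene list, and those that met this rule without being named are not reported here. Other settings tried were stricter limits, joined peaks, stricter annotation, lists of equal length, introns as the only comparison, other overlaps, other filters, scalings (TMM or none) and prior counts, a replicate block, and leaving out each list.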

Additional observations from a re-analysis of the deposited data

How the results depend on the processing

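The higher share of 3′ UTR peaks with SKBG-1(R) than with DMSO, 0.713 percentage points, kept its direction in all settings run, with 0.258 to 1.17 when 1 list was left out. SKBG-1(R) against SKBG-1(S) ranged from 0.176 to 1.09 in that way. SKBG-1(S) against DMSO changed sign with fully 3′ UTR annotation (−0.0261) and with lists of equal length (−0.224), and ranged from −0.0844 to 0.248 without 1 list. The log2 number of peaks ranged, for SKBG-1(S) against DMSO, from −0.90 without DMSO replicate 1 to 2.35 without DMSO replicate 2. For SKBG-1(R) it ranged from 1.08 to 5.25 against DMSO and from 0.35 to 4.52 against SKBG-1(S), lowest without SKBG-1(R) replicate 2 and highest without SKBG-1(R) replicate 1. The cause was not tested. Leaving out intron-overlapping peaks, both GC comparisons and the share near the outermost gene were chosen after seeing the data.

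Within lists, leaving out 1 list gave differences of −29.3 to −24.4 percentage points in overlap, −1.05 to −0.862 in −log10 p, −0.0399 to 0.0103 in log2 enrichment, −10.7 to −9.14 in GC content against other exons, 9.56 to 11.3 against the rest of the same 3′ UTRs, and 17.4 to 29.1 in the share within 5 Mb. At a log2 enrichment of at least 4, where 4 lists cannot give a p below 0.125, they were −6.39, −0.952, −11.0, 8.27 and 26.1 in the same order without log2 enrichment. Without intron-overlapping peaks they were −16.3, −0.809, −9.99, 10.3 and 30.3.

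Called features for SKBG-1(R) against DMSO numbered 0 with at least 2 peaks, TMM factors, no scaling or genes as features, and 0 to 27 without 1 list, as did those for SKBG-1(R) against SKBG-1(S). The 27 arose without SKBG-1(R) replicate 1 and included the CCND1, DNAJC5 and NACC2 3′ UTRs, at 0 in all other lists, with the lone list taken to vary like the rest. Scaling moved the median log2 difference of all features for SKBG-1(R) against DMSO to 0.47 (TMM) or 1 (none), against 0.20. Unscaled, TIMM13 turned to 0.21 in both SKBG-1(R) comparisons and ARFRP1 to 0.21 for SKBG-1(S) against DMSO. Without 1 list, log2 differences for SKBG-1(R) against DMSO ran from −1.13 to 1.199 for ARFRP1, −0.65 to 0.90 for RBM14 and −1.41 to 0.47 for TIMM13. For SKBG-1(S) against DMSO they ran from −1.30 to 1.02, −0.75 to 1.02 and −1.001 to 0.87. For SKBG-1(R) against SKBG-1(S) they ran from −0.39 to 0.76, −0.85 to 0.89 and −1.32 to 0.46, and from −0.78 to 0.96 for SSU72. SSU72 for SKBG-1(S) against DMSO ran from 0 without SKBG-1(S) replicate 2 to 1.82 without SKBG-1(S) replicate 1. For SKBG-1(R) against DMSO, DNAJC5 ran from 0 to 2.04 and NACC2 from 0 to 1.86, at 0 without SKBG-1(R) replicate 2 and highest without SKBG-1(R) replicate 1.

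A replicate block left the share differences at 0.713, 0.0816 and 0.631, where 2 pairs cannot give a p below 0.5, and the called features at 1, 0 and 0. With the block, features under an unadjusted limma p of 0.05 numbered 38 for SKBG-1(R) against DMSO, 16 for SKBG-1(S) against DMSO and 28 for SKBG-1(R) against SKBG-1(S), against 14, 2 and 5 without it. CCND1 was among them in both SKBG-1(R) comparisons, with an unadjusted limma p of 0.0145 and adjusted p of 0.572 against DMSO and 0.705 against SKBG-1(S). Deviations of same-numbered lists correlated at 0.45 to 0.59 over 531 features, but the labels do not tie a number to a batch or day.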
